A study of Mus musculus with 2 samples.

Results

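The replacement histone variants are the histone genes that cells can express outside DNA replication, and 8 of them were followed here in cultured mouse B cells: H2afx, H2afy, H2afz, H2afv and H2afj of the H2A family and H3f3a, H3f3b and Cenpa of the H3 family. They were chosen by gene symbol, and all 8 were found among the 23288 genes of both libraries. H3f3a lies on chromosome 1, H2afz on 3, Cenpa on 5, H2afj on 6, H2afx on 9, H2afv and H3f3b on 11 and H2afy on 13. RNA depleted of ribosomal RNA was sequenced from splenic B cells, with 1 Nedd4+/+ and 1 Nedd4-/- library. The product of Nedd4 is a HECT-type ubiquitin ligase. Both groups came from fetal liver chimeric mice, whose blood cells grow from transplanted fetal liver, on a mixed B6 and 129 background backcrossed to B6. Culture lasted 72 hours in the presence of LPS, a bacterial lipopolysaccharide, and the cytokine IL-4, a pair known to drive class switching to IgG1. The labels give no number of animals or cultures behind a library and no measure of host B cells left in the chimeras. Since each genotype has 1 library, the differences below have no replicate check and genotype was not tested.

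Most histone protein is made in S phase from clustered, intronless genes whose messenger RNA ends in a short stem-loop in place of a poly(A) tail. Replacement variants are encoded by single genes, mostly with introns and a poly(A) tail, and their proteins can enter chromatin at any stage of the cell cycle or at a stage of their own. H2A.X is phosphorylated around double-strand breaks, including those of class switching. H2A.Z and H3.3 mark promoters and sites of histone turnover, macroH2A is found in silent chromatin, and CENP-A takes the place of H3 at centromeres.

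Read bases came to 8.40 gigabases in the Nedd4+/+ and 6.17 gigabases in the Nedd4-/- library, in reads of 101 nt, a depth and a read length that the steps of the deposited upstream values gave. Nedd4 stood at 7.59 RPKM, a read level scaled to transcript length and library size, in the Nedd4+/+ cells and at 1.95 in the Nedd4-/- cells. All log2 ratios of gene levels below are Nedd4-/- over Nedd4+/+ on the RPKM + 1 scale, and over the 9405 genes compared, those whose mean reached 1 RPKM, their median was -0.31. Subtracting that median gives the relative values quoted below. By reference transcript lengths, 32.6% of the read bases of the Nedd4+/+ library and 24.4% of those of the Nedd4-/- library lay on transcripts of known length. The part of this difference in the median and in the ratios as deposited was not tested. The libraries also differed in sex-linked RNA, with Xist at 23.7 and 0.0958 RPKM and the Y-linked gene Ddx3y at 2.63 and 10.6 RPKM, and this difference and genotype cannot be told apart. Of the 10 B cell markers, 9 were compared, with a median log2 ratio of -0.24, 4 below the median of all genes and 5 above. They ran from Cd22 at 49.1 and 26.8 RPKM (-0.85) to Cd79a at 13.9 and 15.6 RPKM (0.15), and the most abundant was Cd74 at 758 and 650 RPKM. The summed levels of the measured T cell, myeloid, natural killer and erythroid markers were 2.59 and 3.61, 3.17 and 4.76, 0.789 and 1.56, and 5.89 and 4.29 RPKM. A mean of 1 RPKM was reached by 1 of 9, 0 of 10, 0 of 6 and 2 of 7 of them, and their part in the results below was not tested.

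Among the 8 genes, H2afx was the only one in which the stem-loop of replication-dependent histone RNA was found. The motif searched was GGNNNTTTNNANNNCC on the sense strand, with the first 6 bases pairing with the last 6, in the GENCODE transcripts of build GRCm38. It occurred in 80 of 55341 genes (0.145%), among them 40 of 64 replication-dependent core histone genes. Some annotated core transcripts are short, such as those of Hist1h4k (312 bases) and Hist1h2ak (393 bases). How far they reach past the coding end was not checked, so a core gene without a match may still have the element. Of the 80, 36 had symbols outside the histone series Hist1 to Hist4, H2afx among them, so a match is not by itself proof of a histone element. The sequences are shown because they set H2afx beside these genes: that of H2afx and that of the most abundant core histone gene with a match in each family, 5′ to 3′, with the 6-base stem in capitals and the 4-base loop in lower case.
H2afx: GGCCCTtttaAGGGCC
Hist2h2aa1: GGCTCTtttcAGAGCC
Hist1h2bk: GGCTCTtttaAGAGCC
Hist1h3e: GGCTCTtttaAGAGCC
Hist1h4d: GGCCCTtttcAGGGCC
Counted from 1 at the 5′ end, the H2afx element differed from that of Hist1h4d only by A10C, and from that of Hist1h3e by C4T and G13A, a change on both sides of the stem. The H2afx element lies in the single exon of the gene, in the 3′ UTR, at chr9:44335240-44335255 on the plus strand (GRCm38), 50 bases past the coding end. The annotated transcript runs on for 822 bases beyond it, and holds the hexamer ATTAAA within its last 40 bases. Of the other 7 genes, H2afv, H2afj, H3f3a and Cenpa held AATAAA and H2afz held ATTAAA in that window. No stem-loop of these letters was found in their annotated transcripts.

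H2afx was the most abundant of the 8 genes in both libraries. Its level was 139 RPKM in Nedd4+/+ and 81.7 RPKM in Nedd4-/- cells, ranks 140 and 170 of all genes. H3f3a, H2afz and H3f3b followed at 61.0, 59.5 and 53.1 RPKM in the Nedd4+/+ library. H2afy stood at 40.1, Cenpa at 19.7, H2afj at 9.88 and H2afv at 5.77 RPKM there, so that the 8 genes spanned a 24.0-fold range. In the Nedd4+/+ library the counting intervals of H3f3a and H2afz overlapped and those of all other neighbours in the order did not. In the Nedd4-/- library the order was the same except that H2afz (57.2 RPKM) stood above H3f3a (50.8 RPKM), and no neighbours had overlapping intervals. These intervals, like those below, are exact 95% limits of the read pairs behind a value and cover counting error only.

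**Figure D1:**
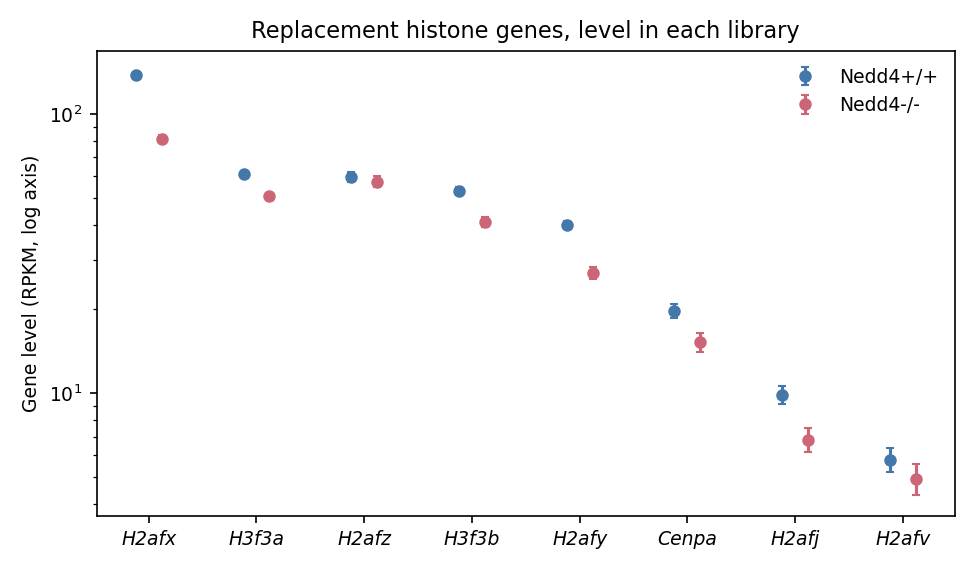
Level of each replacement histone gene (RPKM, log axis) in the Nedd4+/+ and the Nedd4-/- library, 1 library each, with exact Poisson 95% counting intervals. H2afx was highest in both (139 and 81.7 RPKM), and H2afz lay nearest to equal levels (59.5 and 57.2 RPKM).

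All 8 genes had a lower RPKM in the Nedd4-/- library, as had 92.7% of all genes compared, and none passed the 2-fold rule in either direction. Of all genes compared, 1.15% were at least 2-fold lower and 0.138% at least 2-fold higher. Relative to the median of all genes these shares were 0.223% and 0.276%. The median log2 ratio of the 8 genes was -0.36, against -0.31 over all genes, with 5 genes below that median and 3 above. That split was not stable: 3 genes lay below with a pseudocount of 0.1 RPKM, with none, with a minimum of 5 RPKM, against genes of similar level and with equal sums of RPKM, and 8 with no minimum. Within the group the genes ran from H2afx at -0.75 to H2afz at -0.06. The quartiles of the group were -0.50 and -0.24, against -0.45 and -0.18 over all genes compared. By its quartiles the group therefore spread no more widely than all genes did. In bulk RNA, fewer cells of a type and less RNA per cell cannot be told apart.

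H2afx, whose product carries the phosphorylated tail at DNA breaks, was the furthest from equal levels. The 139 RPKM of the Nedd4+/+ library stood against 81.7 RPKM in the Nedd4-/- library, 41.0% lower, -0.75 on the log2 scale (limits with no pseudocount -0.82 to -0.70). Relative to all genes this was -0.44, and 4.61% of the genes compared had a lower log2 ratio. H2afx lies on chromosome 9, as Nedd4 does. It was the lowest of the 8 under every alternative scaling, pseudocount and minimum run here, with values from -0.76 to -0.35. Most of these could hardly change that order. The minimums leave the ratios as they are, and a shared median or a single library factor moves all 8 nearly alike. Only the scalings against genes of similar level or transcript length move each gene by its own amount.

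The genes that write, read and erase the H2A.X mark lay around the median of all genes. Of 15 such genes 14 reached that mean, none was past 2-fold, and their median was -0.32, with 7 below and 7 above the median of all genes. Atm, a kinase that phosphorylates H2A.X at breaks, stood at 16.9 and 16.3 RPKM (-0.04), and Mdc1, the protein that binds the phosphorylated tail, at 2.83 and 2.14 RPKM (-0.29). The genes furthest from equal levels were Baz1b, a tyrosine kinase of H2A.X, at 19.9 and 13.2 RPKM (-0.56), Brca1, a repair factor recruited to breaks (-0.50), and Ppp4c, a phosphatase subunit (-0.46).

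The H2A.Z pair, H2afz and H2afv, lay at the upper end of the group. H2afz, which encodes H2A.Z.1, stood at 59.5 and 57.2 RPKM, or -0.06 on the log2 scale and 0.26 as a relative value. Its limits of -0.14 to 0.03 included equal levels. Of the genes compared, 88.9% had a lower log2 ratio. H2afv, which encodes the near-identical H2A.Z.2, stood at 5.77 and 4.94 RPKM, -0.19 on the log2 scale (limits with no pseudocount -0.46 to 0.01) and a relative value of 0.12. H2afz made up 91.2% of the summed RPKM of the pair in the Nedd4+/+ library (Clopper-Pearson interval 90.3% to 92.0%) and 92.0% in the Nedd4-/- library (91.0% to 93.0%), and these intervals overlapped. For H2afz, 58.7% of the read-length stretches of its transcript also occur in the annotated transcript of another gene, against 0% for H2afv, and how the authors treated such reads is not given in the sources used here. The effect of that sharing on the H2afz values was not tested.

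On the RPKM scale, which is per length, H2afx was 2.33 times as abundant as H2afz in the Nedd4+/+ library and 1.43 times in the Nedd4-/- library. Theirs were the lowest and highest log2 ratios of the group, a choice of pair that favours limits lying apart. The limits of these log2 ratios between the libraries (-0.82 to -0.70 for H2afx and -0.14 to 0.03 for H2afz) lay apart. This compares reads of 1 library per genotype and not the genotypes.

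Genes that place H2A.Z in chromatin or remove it lay around the median of all genes. Of 22 compared, none passed 2-fold, 12 lay below and 10 above that median, and their own median was -0.32. Ep400, the ATPase of one H2A.Z exchange complex, stood at 8.79 and 7.32 RPKM (-0.23). The furthest were Ruvbl2, an AAA+ ATPase shared by several remodelling complexes, at 37.7 and 24.8 RPKM (-0.59), Dmap1, a subunit of these complexes (-0.45), and Nap1l4, a histone chaperone (-0.43). Of the 24 genes listed, Srcap and Mrgbp were not found under these symbols among the genes measured.

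H3f3a and H3f3b, separate genes for the same H3.3 protein, had nearly equal levels and nearly equal ratios. H3f3a stood at 61.0 and 50.8 RPKM, -0.26 on the log2 scale (limits with no pseudocount -0.32 to -0.21), and H3f3b at 53.1 and 41.1 RPKM, a log2 ratio of -0.36 (-0.44 to -0.30). Relative to all genes these were 0.06 and -0.05. H3f3b gave 46.6% of their summed RPKM in the Nedd4+/+ library (45.6% to 47.5%) and 44.7% in the Nedd4-/- library (43.5% to 45.9%), a difference of -1.88 percentage points whose library intervals overlapped. Of the H3f3a transcript, 26.2% of read-length stretches occur in other annotated transcripts, among them H3f3c, the pseudogene H3f3a-ps2 and the overlapping RNA Gm17275, against 3.01% for H3f3b. An antisense RNA, H3f3aos, is also annotated over H3f3a. Without a stated strand setting its reads and those of H3f3a cannot be told apart.

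The genes listed as chaperones of H3.3 lay on both sides of the median of all genes. The list also holds histone chaperones not confined to H3.3, such as Asf1b and Nasp. All 12 were compared, none passed 2-fold, and 6 lay below and 6 above the median of all genes, with a list median of -0.32. Hira, the scaffold of the complex that deposits H3.3 in active chromatin, stood at 4.74 and 4.14 RPKM (-0.16). Atrx and Daxx, which deposit H3.3 at repeats and telomeres, stood at 14.5 and 11.0 RPKM (-0.37) and at 7.26 and 4.75 RPKM (-0.52). The furthest were Ubn1, a HIRA partner, at 9.20 and 5.86 RPKM (-0.57), Daxx, and Cabin1, also of the HIRA complex (-0.49).

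H2afy, H2afj and Cenpa had lower log2 ratios than the H2A.Z genes, though the intervals of H2afj and Cenpa overlapped that of H2afv. H2afy, which encodes macroH2A1, stood at 40.1 and 27.0 RPKM, -0.56 on the log2 scale (limits with no pseudocount -0.66 to -0.49) and a relative value of -0.24. Of the genes compared, 13.8% had a lower log2 ratio than H2afy. H2afj, which encodes H2A.J, a variant close to canonical H2A, stood at 9.88 and 6.81 RPKM, or -0.48 on the log2 scale (-0.72 to -0.36) and a relative value of -0.17. The interval of H2afj overlapped those of H2afx, H2afy, H3f3b, Cenpa and H2afv, so that at its depth of 752 and 380 read pairs its place among them was not resolved.

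Cenpa, the gene of the centromeric H3 variant, lay near the median of all genes. It stood at 19.7 and 15.2 RPKM, -0.35 on the log2 scale (limits with no pseudocount -0.51 to -0.23) and a relative value of -0.04. A list of 19 genes held factors linked to CENP-A loading and subunits of the inner kinetochore at centromeres. Of these, 14 had a log2 ratio above that of the median gene and 5 one below it, none passed 2-fold, and their median was -0.25. Hjurp, the chaperone of CENP-A, stood at 17.9 and 13.3 RPKM (-0.40). The furthest were Cenpm at 8.89 and 5.84 RPKM (-0.53), Mlf1ip (-0.47) and Cenpp (-0.43), all of the centromere-bound inner kinetochore.

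Of the other replacement variants listed, 8 were measured and 1 reached the mean of 1 RPKM. This was H1f0, a replacement linker histone known from differentiated and resting cells, at 4.39 and 1.37 RPKM, a log2 ratio of -1.19 that passed the 2-fold rule as deposited but not relative to the median of all genes (-0.87). H2afy2, the gene of the second macroH2A, stood at 0.168 and 0.352 RPKM, and H1fx at 0.108 and 0.482 RPKM.

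**Figure D2:**
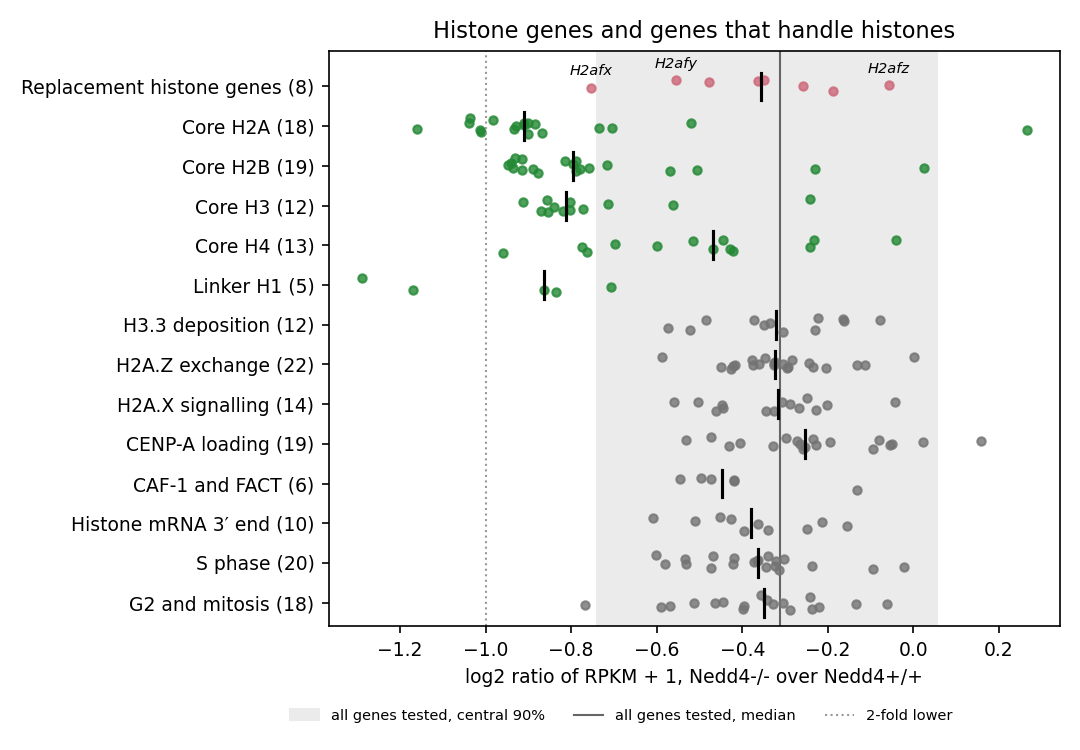
Log2 ratio of RPKM + 1, Nedd4-/- over Nedd4+/+, for the compared genes of each group (number in brackets), with a black bar at each group's median. The grey line and band are the median (-0.31) and the central 90% of all genes compared, and the dotted line marks 2-fold lower. The core histone genes run from -1.16 to 0.26, a range that holds all 8 replacement genes. H2afx lies at -0.75, and the other 7 replacement genes lie between -0.56 and -0.06.

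The replication-dependent core histone genes had a lower median than the replacement genes. All 62 were compared and had a median of -0.80 on the log2 scale, with 5 at least 2-fold lower and 55 below the median of all genes. Relative to that median, 0 of the 62 were 2-fold lower. The furthest was Hist1h2ak at 254 and 113 RPKM (-1.16), followed by Hist1h2ao and Hist1h2ap (both -1.04). By family the medians were -0.91 for H2A, -0.80 for H2B, -0.81 for H3 and -0.47 for H4. All 8 replacement genes lay within the range of the core genes, -1.16 to 0.26. Of the 62 core genes, 40 were lower than H2afx (-0.75) and 3 were higher than H2afz. The 40 core genes in which the stem-loop was found had a median of -0.81 and ran from -1.04 to -0.04, and the 22 without a match had a median of -0.79. Since some annotated transcripts may stop before the element, these medians do not compare genes with and without it. A median of 42.3% of the read-length stretches of a core gene occur in other genes, so that reads cannot be assigned to each copy with certainty. In 16 core genes with under 20% shared stretches the median was -0.68. Core genes reached mean depths of 6446 and 4600 reads per base, and the 28 with a depth under 2000 in both libraries had a median of -0.80. The 8 replacement genes stood at 30.5 to 1164 reads per base.

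Genes of the cell cycle had medians closer to that of all genes (-0.31) than to that of the core histones (-0.80). Against genes of similar level the medians were 0.041 for S phase and 0.056 for G2 and mitosis. All 20 S phase genes were compared, with a median of -0.36, 16 below the median of all genes, 4 above and none past 2-fold. The furthest were Mcm3 at 51.1 and 33.4 RPKM (-0.60), Mcm2 (-0.58) and Mcm7 (-0.53), subunits of the replicative helicase. The 18 genes of G2 and mitosis had a median of -0.35, with 11 below and 7 above, led by the proliferation marker Mki67 at 65.3 and 38.0 RPKM (-0.77). Genes for the transcription and 3′ processing of core histone RNA had a median of -0.38 over 10, with 7 below and 3 above, among them Slbp, the stem-loop binding protein, at 34.0 and 25.6 RPKM (-0.40), Npat, their transcriptional coactivator, at -0.25, and Sympk, a scaffold of the cleavage complex, at -0.61. The chaperones of replication and transcription, CAF-1 and FACT among them, had a median of -0.45 over 6, of which 5 lay below the median of all genes, with Chaf1b furthest (-0.55).

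As shares of their families, the replacement genes were higher in the Nedd4-/- library, a measure that does not move with the scaling of a library. The 5 H2A members made up 6.31% of the summed RPKM of H2A genes in the Nedd4+/+ library (Clopper-Pearson interval 6.21% to 6.41%) and 8.34% in the Nedd4-/- library (8.15% to 8.54%). H2afz and H2afv together made up 1.62% (1.57% to 1.68%) and 2.92% (2.80% to 3.04%). H2afx alone made up 3.44% (3.37% to 3.52%) and 3.84% (3.71% to 3.97%). Of the H3 family, H3f3a and H3f3b gave 2.92% (2.86% to 2.97%) and 3.79% (3.70% to 3.88%), and Cenpa 0.504% (0.476% to 0.533%) and 0.629% (0.582% to 0.677%). The intervals of each share lay apart between the libraries, but the shares of a family rest on the same sum and are not separate results. How often shares of other genes lie apart was not computed. Counted as read bases, which weigh long transcripts more, the shares were larger: 15.5% and 19.5% for the 5 H2A members and 9.30% and 11.9% for H3f3a plus H3f3b. Most of each denominator came from core histone genes, whose H2A members summed to 3769 and 1951 RPKM, and how reads matching several of them were counted is not known.

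**Figure D3:**
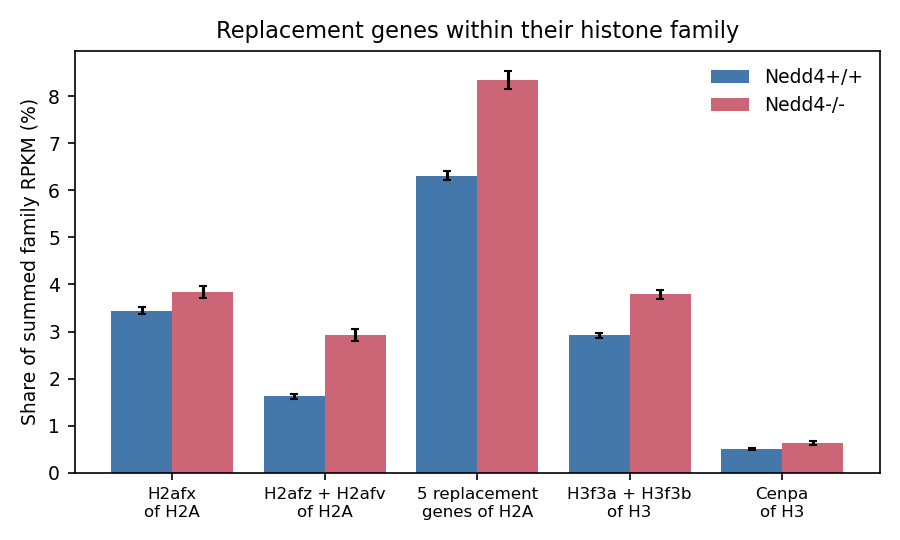
Share (%) of the summed RPKM of H2A or H3 genes held by replacement genes in each library, with exact 95% counting intervals. Each share was higher in the Nedd4-/- library, that of H2afx least in proportion (3.44% and 3.84%) and that of H2afz plus H2afv most (1.62% and 2.92%).

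A further deposited readout gives reads over the 1 kb before each gene. Its levels were low at all 8 genes, between 0.0648 and 0.876 RPKM in the Nedd4+/+ library and between 0.142 and 1.13 RPKM in the Nedd4-/- library. The windows of H2afx (0.876 and 1.13 RPKM) and H2afz (0.604 and 0.998 RPKM) were the highest in both. In the reference annotation the neighbouring gene Dpagt1 reaches into the kb upstream of H2afx on the same strand, at 2.62 and 1.66 RPKM. The antisense RNAs Gm48853 and Gm43403 reach into the windows of H2afx and H2afz, and the part of these neighbours in the values was not tested.

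Of the 8 windows, 6 were higher in the Nedd4-/- library, and 71.2% of all windows compared were. On a log2 scale with 0.1 RPKM added, the 11837 windows compared, those with a mean of 0.2 RPKM or more, had a median of 0.41. That minimum kept the 6 higher windows and left out the other 2, and H3f3b, H2afj and H2afv passed it through the Nedd4-/- library alone, so the 6 say nothing beyond their own values. Of the 6, 1 was at least 2-fold higher, against 19.8% of all windows, and none was at least 2-fold lower, against 0.794%. Relative to the median of all windows these backgrounds were 6.5% and 5.68%, and the same window was again the 1 called. This was H2afv, at 0.0648 and 0.497 RPKM, a log2 ratio of 1.86 with a counting interval without pseudocount of 1.05 to 5.54. It rested on 2.69 and 15.2 read pairs, and the call was lost with 1 RPKM added (0.49 on the log2 scale) and with a minimum of 1 RPKM, which the window did not reach. The intervals of the other 7 included equal levels: H2afx had 0.33 (-0.35 to 1.08), H2afz 0.64 (-0.09 to 1.55), and H3f3a, H3f3b and H2afj 0.47, 0.85 and 0.67. The windows of H2afy (0.145 and 0.142 RPKM) and Cenpa (0.207 and 0.153 RPKM) were below the minimum. The H2afx window rested on 36.4 and 34.4 read pairs, and relative to the median of all windows it stood at -0.085.

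**Figure D4:**
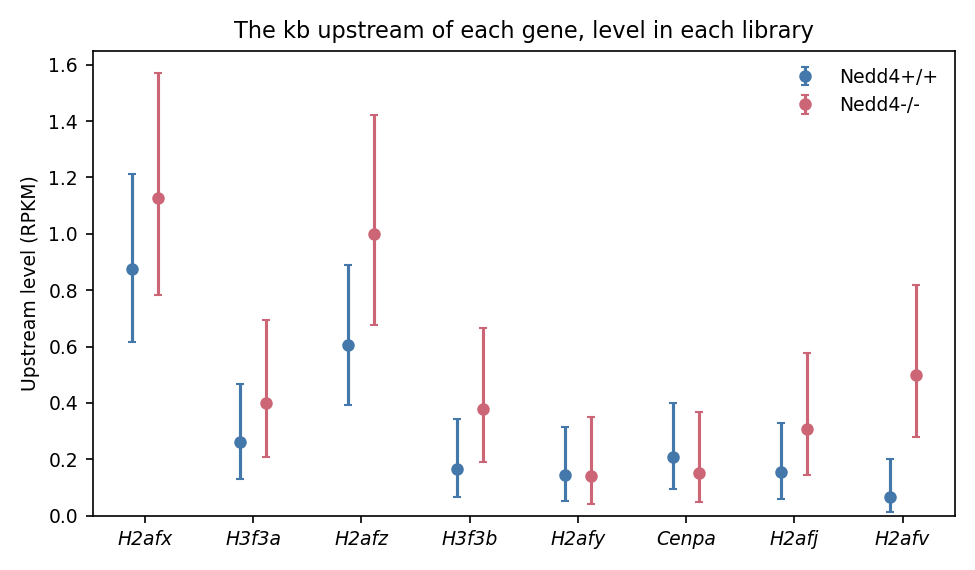
Level (RPKM) of the kb upstream of each replacement histone gene in each library, with exact Poisson 95% counting intervals. The H2afv window (0.0648 and 0.497 RPKM) rested on 2.69 and 15.2 read pairs and passed the minimum through the Nedd4-/- library alone. It was at least 2-fold higher there, as were 19.8% of all windows compared.

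The promoters of the H2A.Z genes and of some others shared the CCAAT box, the motif bound by the factor NF-Y. RefSeq promoter sequences (GRCm38.p6, 250 bases before to 50 bases after the start) were found for 7 of the 8 genes, H2afx being the exception. CCAAT or its reverse complement ATTGG occurred in 6 of the 7 and in 37.4% of 32851 promoters of that length. At least 3 copies occurred in 4 of the 7, with 4 in H2afv, 4 in H3f3b, 3 in H2afz and 3 in H2afj, and in 3.37% of all promoters. The parts of the upstream 250 bases outside every annotated exon are shown for the H2A.Z pair, the genes with the highest ratios, and for H2afj, 5′ to 3′ in the direction of the gene with CCAAT and ATTGG in capitals.
H2afz: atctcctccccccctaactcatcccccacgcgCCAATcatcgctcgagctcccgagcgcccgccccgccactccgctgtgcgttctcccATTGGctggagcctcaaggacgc
H2afv: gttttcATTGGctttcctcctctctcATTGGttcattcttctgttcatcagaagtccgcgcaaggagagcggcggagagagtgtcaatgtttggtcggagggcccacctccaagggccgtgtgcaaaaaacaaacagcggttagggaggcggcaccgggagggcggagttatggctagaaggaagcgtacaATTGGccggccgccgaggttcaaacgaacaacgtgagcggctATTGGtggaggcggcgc
H2afj: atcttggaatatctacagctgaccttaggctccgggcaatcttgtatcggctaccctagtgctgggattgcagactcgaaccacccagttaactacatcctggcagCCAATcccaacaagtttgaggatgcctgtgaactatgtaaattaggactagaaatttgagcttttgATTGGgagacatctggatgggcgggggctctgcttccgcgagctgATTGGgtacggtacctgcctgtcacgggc
They lie at chr3:137864375-137864486 (plus strand), chr11:6444444-6444693 (minus strand) and chr6:136807998-136808243 (plus strand). The H2afz stretch shown holds 2 of the 3 copies in its promoter window. The promoter of H3f3a, the other H3.3 gene, held 1 CCAAT and 6 copies of GGGCGG or its reverse complement, whereas that of H3f3b held none of the latter and 1 TATAAA on either strand. At least 1 GGGCGG occurred in 35.7% and at least 1 TATAAA in 13.6% of all promoters. TTTGAA, searched on both strands, occurred once each in Cenpa and H2afv and in 17.9% of all promoters. H2afy held no CCAAT. A match of letters is a description of the window and was not tied to the levels: H2afj, with 3 copies, had a log2 ratio of -0.48 and H2afz, with 3, of -0.06.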

How the data were processed

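RNA was measured in 1 Nedd4+/+ and 1 Nedd4-/- library. Per the submitters' processing notes, TopHat, Cufflinks and build mm9 were used; the sources used here give no versions, roles, strand setting or treatment of multiple matches. The authors deposited gene levels as RPKM, with 1 RefSeq transcript for each gene, per the file headers. Their deposited upstream column proved to be a ratio, the window's level over the gene's RPKM + 0.0001: multiplied back, 99.97% of 6670 and 100% of 6801 windows gave whole read bases in 1000 nt (within 0.05 bases). No read length was assumed there: the 10 most common base counts in each library were all multiples of 101, taken as the read length, and exactly 2 reads were more common than 1 (74 against 14 windows and 20 against 7), so counts are in pairs of 202 bases. Totals were 8.40 and 6.17 gigabases. Gene intervals use GENCODE M21 transcript lengths (matched for 22622 genes, 97.1%), which may differ from the authors' lengths, so they are approximate.

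Genes whose mean reached 1 RPKM, and windows whose mean reached 0.2 RPKM, were compared by log2 ratio with 1 and 0.1 RPKM added, which understates low genes, and by a 2-fold rule. No p-value was computed. Exact Poisson and Clopper-Pearson 95% limits cover counting error alone: reads are not independent molecules, and the labels name no molecular identifiers. The calculations were tested on simulated data. Alternatives changed the pseudocount, minimum, scaling and share denominators. The 8 genes and the lists were chosen with earlier results of these data known. Named are the 8 genes with all values, at most 3 genes of a list (those furthest from equal levels), the subunits that define a list, and Nedd4. Xist, Ddx3y, Cd74, Cd79a, the other replacement variants under the minimum and the core genes whose stem-loops are printed were named after their values were seen. Python 3.11.15 with numpy 2.4.6, pandas 2.3.3, scipy 1.17.1 and matplotlib 3.10.9 was used.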

Additional observations from a re-analysis of the deposited data

How the results depend on the processing

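None of the 8 genes passed 2-fold under any of the scalings, pseudocounts and minimums run. Their median log2 ratio became -0.044 relative to the median of all genes, 0.051 against genes of similar level, -0.056 against genes of similar transcript length and -0.0091 with equal sums of RPKM, and that of the core histones became -0.49, -0.40, -0.56 and -0.45. Under these scalings 21, 17, 21 and 23 genes were at least 2-fold lower (108 as reported) and 26, 21, 25 and 23 higher (13 as reported). A pseudocount of 0.1 RPKM gave 229 lower and 25 higher genes, no pseudocount 262 and 26, and a minimum of 5 RPKM 7 higher. Upstream windows at least 2-fold higher numbered 2 with a pseudocount of 1 RPKM, 10 with a minimum of 1 RPKM, 4468 with no minimum and 769 relative to their median (2343 as reported), and lower windows 12, 38 and 672 with that pseudocount, that minimum and that scaling (94 as reported). Of the members' windows, 0 were then 2-fold higher with that pseudocount and 0 with that minimum. Shares of read bases, which favour long transcripts, were 37.9% and 36.2% for H3f3b, 87.1% and 88.3% for H2afz, 15.5% and 19.5% for the H2A members and 9.30% and 11.9% for H3f3a plus H3f3b (Nedd4+/+ and Nedd4-/-). Alternatives chosen after seeing the data gave 2.97% and 4.68% for the H2A members without H2afx and a core median of -0.68 for genes with few shared stretches. No paired analysis was possible because each genotype has 1 library and the labels give no shared replicate number. Depth limits the upstream values of the members, whose windows held 2.69 to 36.4 read pairs.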
